A study of Mus musculus with 8 samples.

Results

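The mitochondrial ribosomal protein genes are the nuclear genes whose products make up the protein part of the ribosome inside mitochondria. They were taken as the probe sets annotated with 1 gene symbol that starts with Mrpl or Mrps followed by a digit, and each gene was represented by the probe set with the brightest mean over its 4 arrays, with array type A used before type B. The 160 probe sets found in this way gave 76 of the 18193 genes named on the arrays, of which Mrps10 and Mrps27 were read on type B and the other 74 on type A. The products of 49 belong to the large subunit, among them Mrps18a and Mrps30 in spite of their symbols, and the other 27 were counted with the small subunit by symbol, including Mrps36, whose product is now assigned to the 2-oxoglutarate dehydrogenase complex. Mrpl30 and Mrpl53 were left out because their probe sets carry several symbols.

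The study used total RNA from mouse skeletal muscle myotubes, which are fused, multinucleated muscle cells, and asked which genes depend on Egr3, a zinc-finger transcription factor with a known part in muscle spindle development. Of the 4 RNAs, the labels mark 1 as truncated Egr3 and 1 as wildtype. RNA275 is labelled with an acclimatization treatment only and RNA276 with no condition, so both stand outside any group. Each RNA was read on 1 array of type A and 1 of type B, which carry different probe sets and are not replicates. The labels give no strain, age or time, and they do not say how the truncated form was produced or delivered. With 1 RNA per label no test was possible, and higher or lower compares these 2 RNAs rather than the conditions they stand for. In bulk RNA, fewer cells of a type and less of a transcript per cell cannot be told apart.

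Mitochondria have their own ribosome, which translates the few proteins encoded in mitochondrial DNA, all of them parts of the respiratory chain or ATP synthase. Its RNAs come from mitochondrial DNA, while every one of its proteins is encoded in the nucleus, made in the cytosol and imported. Many of these proteins descend from bacterial ribosomal proteins and others have no bacterial relative, and muscle, with its high demand for oxidative energy, is among the tissues affected when they fail.

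The probe sets for Egr3 itself did not separate the RNAs by label. On type A the Egr3 signal was 829.9 in truncated Egr3 and 769 in wildtype, with 1454 in RNA275 and 2627 in RNA276. On type B another Egr3 probe set read 1039 in truncated Egr3 and 1419.7 in wildtype, with 1203 in RNA275 and 771 in RNA276. A probe set outside the missing stretch of a truncated transcript checks nothing about the label. The myotube markers were all measured, with summed signals of 18625 in truncated Egr3, 21235 in wildtype, 19130.2 in RNA275 and 21342 in RNA276, and 9 of the 10 were lower in truncated Egr3, none by 1.5-fold, as were 8 of the 10 with equal medians. Of all measured genes 49.9% were lower in truncated Egr3 as deposited, and their median was 0.09 with equal medians. The part of the myotube markers in the results was not tested. Of the 6 macrophage markers 4 lay below the signal floor in both labelled RNAs, as did Pdgfra and Thy1 of the 5 fibroblast markers. Among the other fibroblast markers, the matrix protein gene Dcn read 317 in truncated Egr3 and 157 in wildtype. The collagen gene Col1a1 read 3417 in truncated Egr3 and 4295 in wildtype, and Col3a1 read 3536 in truncated Egr3 and 3356 in wildtype.

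The mitochondrial ribosomal protein genes differed little between the labelled RNAs. None of the 76 was at least 2-fold higher or at least 2-fold lower in truncated Egr3, against 0.534% and 1.13% of the 10307 measured genes. At 1.5-fold, only Mrps15 was higher, where 4.7% of measured genes were, and Mrpl1 and Mrpl58 were lower, where 4.59% of measured genes were. These calls turned with the scaling, since Mrpl33 also passed with quantile normalization and loess, and with equal medians Mrpl58 no longer passed while Mrpl54 did. Measured genes are those with a signal above a floor, 67.6 on type A or 112.6 on type B, in truncated Egr3, in wildtype or in both. All 76 passed, and each was above the floor in both labelled RNAs, so no difference among them is a lower bound.

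The log2 differences, truncated Egr3 minus wildtype, ran from -0.76 to 0.63, with a median of -0.06 that became 0.00 when the arrays were set to equal medians. In truncated Egr3, 46 members (60.5%) were lower and 30 higher, compared with 49.9% lower among all measured genes, whose median was 0.00. When medians were made equal, 50% of members were lower and the median of all measured genes was 0.09. The spread of the members was narrower than that of all measured genes, with an SD across genes of 0.27 and a median absolute difference of 0.18, against 0.37 and 0.20. Among the 8365 measured genes within the members' range of mean signal, 90.9 to 1019, the SD was 0.38. The SD was 0.20 in respiratory chain subunit genes and 0.25 in cytosolic ribosomal protein genes, both below that of the members. Many genes of these 2 families were brighter than any member, and the families were not compared at equal signal. The large-subunit members had a median of -0.06 and the small-subunit members -0.07, or -0.06 over the 26 other than Mrps36. Members with a bacterial counterpart had a median of -0.07 (n = 44) and those without had -0.04 (n = 32).

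**Figure D1:**
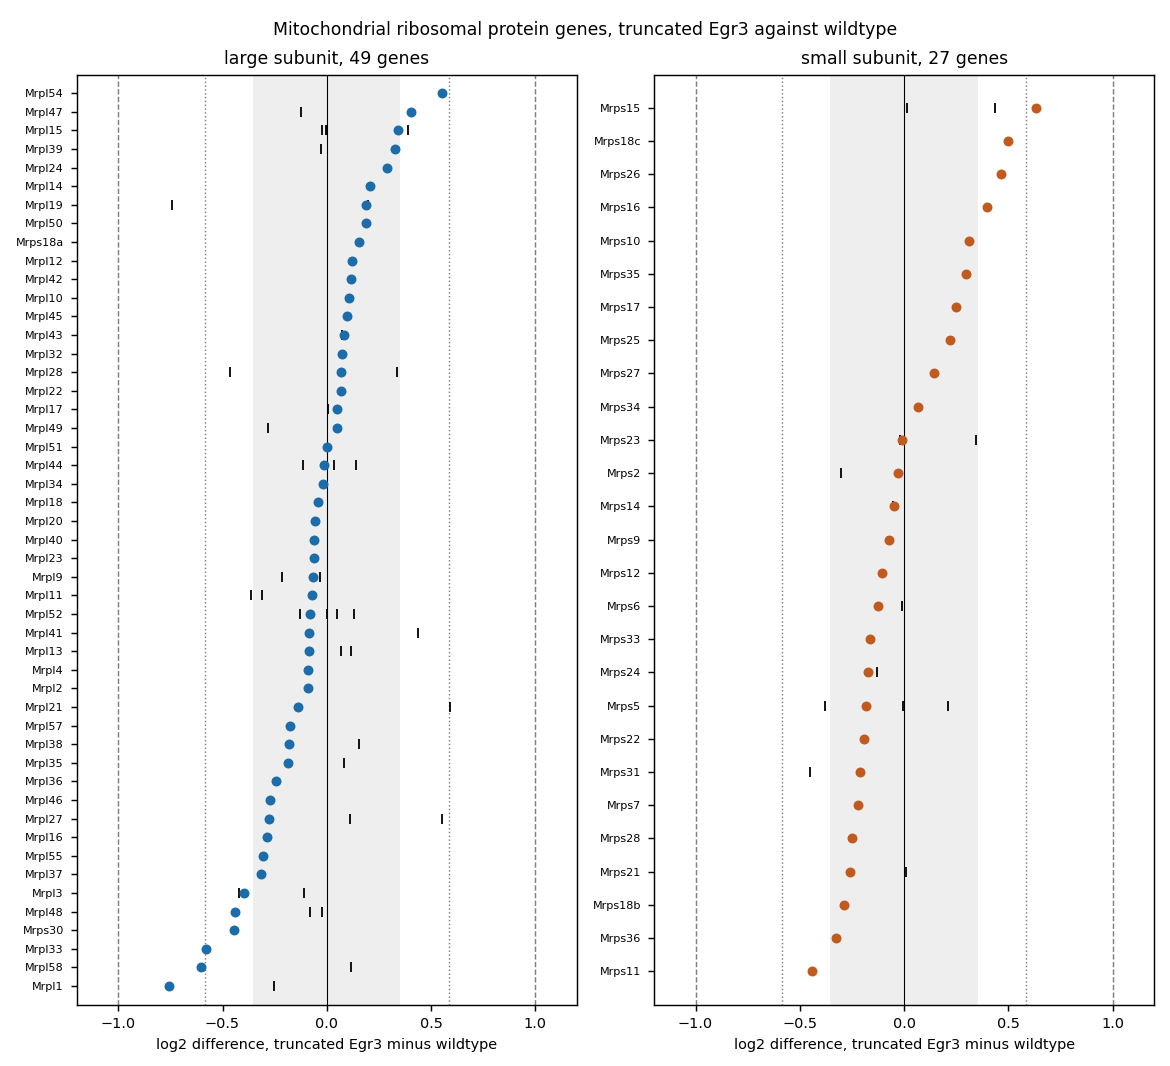
Log2 difference, truncated Egr3 minus wildtype, of the 49 large-subunit genes (left) and the 27 small-subunit genes (right), each gene as a filled point and its other measured probe sets as short ticks, with signals under the floor set to it. The grey band spans 0.35 on either side of 0, dotted lines mark 1.5-fold and dashed lines 2-fold; no point reaches 2-fold, Mrps15 lies furthest right at 0.63 and Mrpl1 furthest left at -0.76.

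How far a single difference can be trusted was read from the 100 probe sets printed on both array types, which measure the same RNA again. Of these, 98 were above the floor in both labelled RNAs on both types, and error near the floor was not measured separately. The SD between types of the log2 differences of the 100 was 0.25, which gives 0.17 for a single difference. It holds nothing for variation between cultures or for a mean shift between types. Beyond 0.35, or 2 such SDs, 6 members (7.89%) were higher and 7 (9.21%) lower in truncated Egr3, against 14.7% and 12.7% of measured genes. Within 1 SD of 0 lay 35 members (46.1%), against 43.8% of measured genes. The differences of the probe sets printed on both types were on average 0.14 lower by type A than by type B, more than the median of the members, nearly all of which are on type A. Measured genes on type A had a median of -0.01, with 51.4% lower in truncated Egr3.

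**Figure D2:**
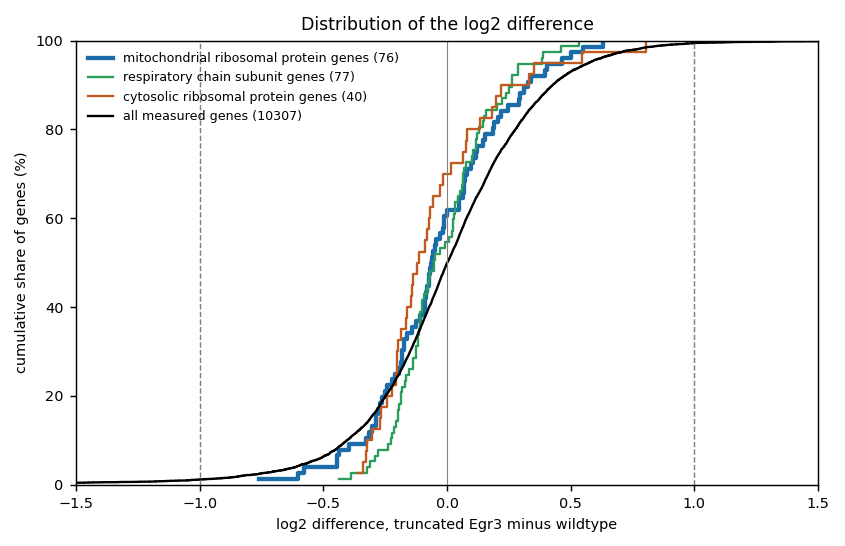
Cumulative share of genes (vertical axis, percent) by log2 difference, truncated Egr3 minus wildtype, for the 76 mitochondrial ribosomal protein genes, 77 respiratory chain subunit genes, 40 cytosolic ribosomal protein genes and all 10307 measured genes. The mitochondrial ribosomal curve lies inside the dashed 2-fold lines throughout and crosses 50% at -0.06, a crossing that moved to 0.00 with equal medians.

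The promoters of these genes carry letters known from other genes of mitochondria and ribosomes. RefSeq gives windows from 250 bases before to 50 bases after the start (build GRCm38.p6) for 67 of the 76 members, and both strands were searched for 4 short motifs. The ETS letters CCGGAAG, bound by GABPA, were in the windows of 25 members (37.3%), compared with 20.0% of other measured genes and 9.93% of all 27025 genes with a window. The YY1 letters AANATGGCG were in 16.4% of members, 6.19% of other measured genes and 2.76% of all. The NRF1 letters CGCATGCG were in 10.4% of members, 4.33% of other measured genes and 2.07% of all. The EGR family letters GCGNGGGCG were in 5 members (7.46%), against 12.5% of other measured genes and 6.27% of all. GC content had a median of 58.0% in members and 61.0% in other measured genes.

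A match only says that the letters are there. At least 1 of the ETS, NRF1 and YY1 motifs was found in 36 members (53.7%), against 62.2% of cytosolic ribosomal protein genes, 41.8% of respiratory chain subunit genes and 27.7% of other measured genes. The 5 members with EGR letters had log2 differences of 0.33 in Mrpl39, 0.07 in Mrpl28, -0.17 in Mrps24, -0.18 in Mrpl57 and -0.22 in Mrps7, so they stood on both sides of 0 and all stayed under 1.5-fold. Members with ETS letters had a median of -0.08 and those without -0.06. For NRF1 the medians were 0.07 with the letters (n = 7) and -0.07 without. For YY1 they were -0.24 with the letters (n = 11) and -0.05 without, with a range of -0.60 to 0.15 among those with them.

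Promoter stretches of 6 members are given 5' to 3' on the strand of the gene, with motif letters in capitals. Mrpl58 and Mrps18c are shown as members with large differences of opposite sign, Mrpl39 and Mrps7 as carriers of EGR letters, Mrpl43 as a carrier of 2 ETS matches beside the helicase gene Twnk, and Mrps11 because its window also holds the start of Mrpl46. In Mrpl58 (chr11:115403682-115403801, plus strand) the capitals are 2 ETS matches and a YY1 match. In Mrps18c (chr5:100798546-100798665, plus strand) they are an ETS match read on the other strand. In Mrpl39 (chr16:84735302-84735421, minus strand) an NRF1 match runs into an EGR match read on the other strand and shares letters with it. In Mrps7 (chr11:115603911-115604030, plus strand) they are 2 EGR matches. In Mrpl43 (chr19:45006414-45006533, minus strand) they are 2 ETS matches. The whole window of Mrps11 (chr7:78782881-78783180, plus strand) has a YY1 match read on the other strand.
Mrpl58: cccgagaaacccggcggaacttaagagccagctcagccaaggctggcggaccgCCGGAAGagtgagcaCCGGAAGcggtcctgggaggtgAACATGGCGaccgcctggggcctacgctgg
Mrps18c: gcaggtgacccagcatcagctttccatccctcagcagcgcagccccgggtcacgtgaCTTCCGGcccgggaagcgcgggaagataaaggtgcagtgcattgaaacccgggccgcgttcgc
Mrpl39: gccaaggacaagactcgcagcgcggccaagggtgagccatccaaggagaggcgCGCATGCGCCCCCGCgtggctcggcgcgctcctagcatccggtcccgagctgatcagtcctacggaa
Mrps7: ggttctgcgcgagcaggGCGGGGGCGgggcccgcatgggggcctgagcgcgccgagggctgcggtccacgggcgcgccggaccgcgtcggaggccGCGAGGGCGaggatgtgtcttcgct
Mrpl43: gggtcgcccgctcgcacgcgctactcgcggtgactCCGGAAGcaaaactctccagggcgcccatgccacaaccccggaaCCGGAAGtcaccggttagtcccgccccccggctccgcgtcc
Mrps11: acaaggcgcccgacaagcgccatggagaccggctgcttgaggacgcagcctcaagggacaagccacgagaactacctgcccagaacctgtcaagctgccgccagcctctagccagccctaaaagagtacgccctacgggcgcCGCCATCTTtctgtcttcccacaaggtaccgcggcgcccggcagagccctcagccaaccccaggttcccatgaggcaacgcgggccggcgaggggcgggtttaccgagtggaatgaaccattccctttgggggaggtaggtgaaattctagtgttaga

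Many of these genes start back to back with another gene. A protein-coding neighbour on the other strand, starting within 1000 bases upstream, was found for 23 of 67 members (34.3%), against 13.1% of other measured genes, 13.5% of cytosolic ribosomal protein genes and 26.9% of respiratory chain subunit genes. Mrpl46 and Mrps11 are each other's neighbour on chromosome 7, with starts 42 bases apart, so the stretch printed for Mrps11 lies over both. Mrpl46, a protein of the central protuberance of the large subunit, read 160.4 in truncated Egr3, 194 in wildtype, 207 in RNA275 and 277 in RNA276. Mrps11, the small-subunit counterpart of bacterial S11, read 90.5 in truncated Egr3, 123 in wildtype, 154 in RNA275 and 212 in RNA276. The 4 RNAs thus fell in the same order for both genes, and both were lower in truncated Egr3, by 0.27 for Mrpl46 and 0.44 for Mrps11 on the log2 scale. That order held for 25.3% of the members above the floor in every RNA, and 60.5% of all members were lower in truncated Egr3. A link to the shared start was not tested. With the higher floor Mrps11 keeps only a bound of -0.28.

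In all, 15 members had a measured neighbour of this kind, 8 of them with the same sign of difference as the neighbour, and no neighbour above the floor in both labelled RNAs was 1.5-fold apart. Mrpl46 and Mrps11, which share a sign, are the same pair and enter both counts from each side. The neighbours of Mrpl41 and Mrps12 were under the floor in truncated Egr3, so their differences are lower bounds. Pnpla7 read 48.9 in truncated Egr3 and 88.6 in wildtype, at least 1.31-fold lower, and Sars2 read 42.8 in truncated Egr3 and 74.2 in wildtype, at least 1.10-fold lower. Mrpl43 read 239 in truncated Egr3, 226 in wildtype, 365 in RNA275 and 243 in RNA276, and its neighbour Twnk, the mitochondrial DNA helicase gene whose start is 116 bases away, read 623 in truncated Egr3, 621 in wildtype, 913 in RNA275 and 590.4 in RNA276. Both were highest in RNA275, as were 22.7% of members and 24.6% of all genes above the floor in every RNA. Mrpl47 and Ndufb5, a complex I subunit gene whose start is 308 bases away, had log2 differences of 0.40 and 0.29. Mrps18b and Ppp1r10 differed in sign, at -0.29 and 0.41, as did Mrps7 and Gga3, at -0.22 and 0.32.

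Among the lower members, Mrpl1, the counterpart of the bacterial L1 stalk protein, read 80.3 in truncated Egr3, 136 in wildtype, 82.0 in RNA275 and 65.8 in RNA276. On this probe set wildtype alone was high, by 1.69-fold over truncated Egr3, and the signal in RNA276 was under the floor. Its difference was -0.76. With the higher floor the signal in truncated Egr3 lay under it, which leaves a bound of -0.42, and a second Mrpl1 probe set, at 61.8 in truncated Egr3 and 80.5 in wildtype, was under the floor there too and gives a bound of -0.25, or -0.38 without a floor. That second probe set read 97.7 in RNA275 and 74.5 in RNA276, so RNA275 and not wildtype was its highest RNA. Mrpl58, a peptidyl-tRNA hydrolase of the large subunit that frees stalled mitochondrial ribosomes, read 322 in truncated Egr3, 488 in wildtype, 359 in RNA275 and 331 in RNA276. Again wildtype stood apart, 1.52-fold above truncated Egr3, on the gene whose promoter is shown with 2 ETS matches and a YY1 match. A type B probe set for Mrpl58 read 132 in truncated Egr3 and 122 in wildtype, a log2 difference of 0.12 in the opposite direction.

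Mrpl33, the counterpart of a small bacterial large-subunit protein, read 102 in truncated Egr3, 152 in wildtype, 142 in RNA275 and 115 in RNA276. At 1.49-fold higher in wildtype it fell just short of the 1.5-fold threshold that Mrpl58 just passed, and its difference of -0.58 was -0.59, past that threshold, with quantile normalization and with loess. The difference of Mrpl58 was -0.54, short of it, with equal medians. Mrps30, a large-subunit protein specific to mitochondria, read 185 in truncated Egr3, 252 in wildtype, 217 in RNA275 and 265 in RNA276. Mrpl48, of the central protuberance, read 157 in truncated Egr3, 213 in wildtype, 281 in RNA275 and 190.3 in RNA276. In Mrps30 and Mrpl48, each 0.44 lower in truncated Egr3 on the log2 scale, truncated Egr3 was the lowest of the 4 RNAs. Other probe sets of Mrpl48 gave -0.08 and -0.03, so the median over its probe sets was -0.08.

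Mrpl3, the counterpart of bacterial L3 near the peptidyl transferase centre, read 248 in truncated Egr3, 326 in wildtype, 303 in RNA275 and 310.1 in RNA276, with truncated Egr3 below the other RNAs, which lay close together. Its difference was -0.40, and its 2 other measured probe sets also fell below 0, at -0.42 and -0.11. Mrps36 read 199 in truncated Egr3, 249.9 in wildtype, 262 in RNA275 and 284 in RNA276. The differences of Mrps36, Mrpl37, Mrpl55, Mrps18b and Mrpl16 were -0.33, -0.31, -0.30, -0.29 and -0.29, and truncated Egr3 had the lowest of the 4 signals for each. These 5 all lay within 0.35 of 0.

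Among the higher members, Mrps15, the counterpart of the bacterial S15 protein that binds small-subunit RNA, read 197 in truncated Egr3, 127 in wildtype, 142 in RNA275 and 205 in RNA276. It was 1.55-fold higher in truncated Egr3 than in wildtype, and RNA276 was higher still. Its other probe sets gave 0.01 on type A and 0.44 on type B, and the median of 0.44 no longer passed 1.5-fold. Mrpl54, a large-subunit protein specific to mitochondria, read 167 in truncated Egr3, 114 in wildtype, 245 in RNA275 and 154 in RNA276. Wildtype was the lowest of the 4 and RNA275 the highest, with a log2 difference of 0.55 between the labelled RNAs.

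Mrps18c, the S18 paralog of the small subunit that corresponds to the bacterial protein, read 222 in truncated Egr3, 157 in wildtype, 233 in RNA275 and 102 in RNA276. Its difference was 0.50, and the single ETS match printed above is in its promoter. Mrps26, a small-subunit protein without a bacterial counterpart, read 188 in truncated Egr3, 136 in wildtype, 298 in RNA275 and 209 in RNA276. The lowest signal was in RNA276 for Mrps18c and in wildtype for Mrps26, and RNA275 was highest for both. The difference of Mrps26 was 0.47.

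Mrpl47, the counterpart of bacterial L29 beside the peptide exit tunnel, read 175 in truncated Egr3, 132 in wildtype, 234 in RNA275 and 194 in RNA276. Mrps16, the counterpart of bacterial S16, read 369 in truncated Egr3, 281 in wildtype, 245 in RNA275 and 234 in RNA276. Both had a difference of 0.40, but Mrps16 was highest in truncated Egr3 of all 4 RNAs, while Mrpl47 was lower there than in RNA275 and RNA276. Another Mrpl47 probe set, on type B, gave -0.12, and the median over its probe sets was 0.14. Mrps16 is 1 of only 5 members highest in truncated Egr3, with Mrps35, Mrpl24, Mrps25 and Mrpl14.

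Mrpl15, the counterpart of bacterial L15, read 535 in truncated Egr3, 423 in wildtype, 643 in RNA275 and 669 in RNA276. Mrpl39, which resembles a threonyl-tRNA synthetase and whose promoter has the joined NRF1 and EGR letters, read 334 in truncated Egr3, 266 in wildtype, 465 in RNA275 and 479 in RNA276. Wildtype was the lowest of the 4 RNAs for both genes, with differences of 0.34 and 0.33. For Mrpl15 the median over 5 measured probe sets was 0.00. For Mrpl39 the other measured probe set gave -0.03. Mrps10, Mrps35, Mrpl24 and Mrps17 followed with differences of 0.31, 0.30, 0.29 and 0.25. That of Mrps10 was 0.19 with quantile normalization and 0.18 with loess.

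**Figure D3:**
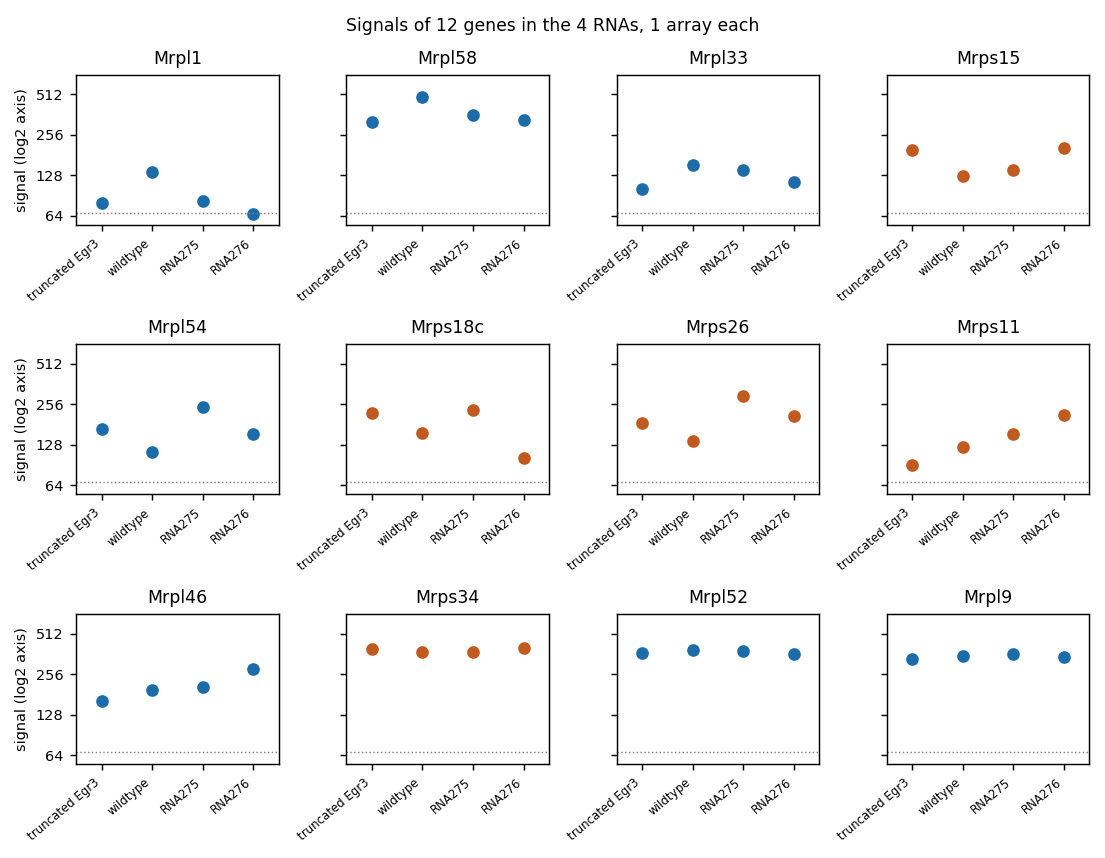
Signal (log2 axis) of 12 mitochondrial ribosomal protein genes in truncated Egr3, wildtype, RNA275 and RNA276, 1 array per point and no error bars; blue marks the large and orange the small subunit, and the dotted line is the signal floor of 67.6. Mrps11 and Mrpl46 climb in the same order over the 4 RNAs, Mrpl1 and Mrpl58 are highest in wildtype, and Mrps34, Mrpl52 and Mrpl9 are nearly level.

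The members were also grouped by where their bacterial or mammalian relatives sit in the ribosome, a grouping made after their values were seen. The central protuberance, which contacts the head of the small subunit, was represented by Mrpl18, Mrpl27, Mrpl38, Mrpl40, Mrpl46 and Mrpl48. All 6 were lower in truncated Egr3, by 0.04 to 0.44 on the log2 scale with a median of -0.23, though with equal medians only 4 of the 6 were lower. Of all 76 members 60.5% were lower, or 50% with equal medians. Among the 6, Mrpl27 and Mrpl38 had the opposite sign on type B, at 0.11 and 0.15. The genes around the exit tunnel were higher in 4 of 5 cases under every scaling, with Mrpl22, Mrpl24, Mrpl45 and Mrpl47 above 0, Mrpl23 below it and a median of 0.10. Of all members 39.5% were higher on the deposited scale.

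The stalk genes, which in bacteria recruit elongation factors or guide departing tRNA, split evenly. Mrpl12, the L7/L12 protein, read 385 in truncated Egr3 and 353 in wildtype, Mrpl10 had a difference of 0.10 and Mrpl11 of -0.07, against -0.76 for Mrpl1. In the small subunit the platform genes spanned nearly the whole range, with Mrps11 at -0.44, Mrps6 at -0.13, Mrps18c at 0.50 and Mrps15 at 0.63. Head genes had a median of -0.07 and body genes 0.07, and the decoding-centre protein Mrps12 read 366 in truncated Egr3 and 395 in wildtype. The 3 paralogs related to bacterial S18 did not move together, since Mrps18c was at 0.50, Mrps18a at 0.15 and Mrps18b at -0.29.

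Where several probe sets read the same gene, they often disagreed. Among 28 members with at least 2 probe sets above the floor in both labelled RNAs, 12 had all on the same side of 0 and 16 had some on each side, and the median spread within a gene was 0.32. The spread reached 0.5 or more in Mrpl21, Mrpl28, Mrpl41, Mrpl47, Mrpl58, Mrps15 and Mrps5, and was widest in Mrpl28, at 0.80. In Mrpl1, Mrpl19 and Mrpl27 it did so only through a probe set with a labelled RNA under the floor. For Mrpl19 that probe set read 66.7 in truncated Egr3 and 113 in wildtype, while the chosen one read 110.1 in truncated Egr3 and 96.6 in wildtype. Mrpl21 read 172 in truncated Egr3 and 189.6 in wildtype on type A, but 405 in truncated Egr3 and 269 in wildtype on type B. Of the 51 other measured probe sets of members, 5 of them with such a signal, 28 shared the sign of the chosen probe set.

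Probe sets printed on both types gave a closer check of the same sequence. Mrpl43 had log2 differences of 0.08 by type A and 0.07 by type B. Mrpl27, the counterpart of bacterial L27, had -0.28 on type A, from 438 in truncated Egr3 and 531 in wildtype, and 0.11 on type B, from 1915 in truncated Egr3 and 1773 in wildtype. The 2 such probe sets for Mrpl52 had -0.13 and 0.00 on type A against 0.05 and 0.13 on type B. In 3 of these 4 probe sets the type A value was thus the lower by at least 0.13, and in Mrpl43 both types gave nearly the same value.

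Across the 4 RNAs most members stayed within narrow ranges. The highest of the 4 signals was a median of 1.37 times the lowest among the 75 members above the floor in every RNA, against 1.48 times among 8414 genes of that kind, and it was at least 2-fold in 4 members (5.33%), compared with 14.0% of those genes. Respiratory chain subunit genes had a median of 1.33 times, with 1.32% at least 2-fold. Cytosolic ribosomal protein genes had 1.23 times and 0%, so both families were narrower than the members. Many genes of these families were brighter than any member, and ranges were not compared with them at equal signal. Genes within the members' range of mean signal had a median of 1.49 times, with 14.5% at least 2-fold. The widest ranges were those of Mrps11 at 2.35-fold, Mrps18c at 2.29-fold and Mrps26 at 2.19-fold. The narrowest was 1.06-fold in Mrpl52, a large-subunit protein specific to mitochondria, which read 364 in truncated Egr3, 385 in wildtype, 378 in RNA275 and 363 in RNA276. Mrps34 and Mrpl9 were nearly as level, at 1.07-fold and 1.08-fold.

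**Figure D4:**
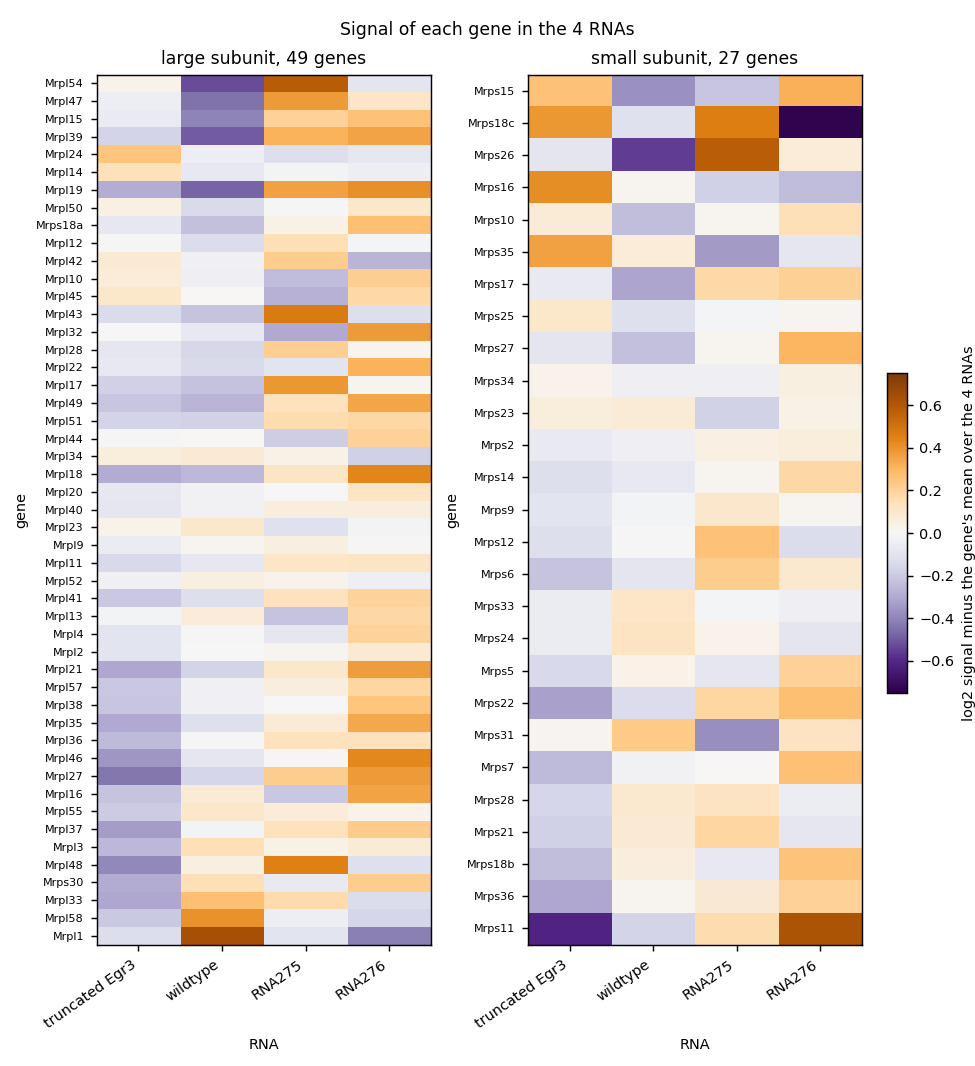
Heat map of the log2 signal of each gene minus its mean over the 4 RNAs, for 49 large-subunit genes (left) and 27 small-subunit genes (right), with genes down the page from the highest to the lowest log2 difference, truncated Egr3 minus wildtype; orange is above and purple below the gene's mean. The truncated Egr3 column is purple in many rows and holds the lowest signal of 36 of 75 genes, and the RNA276 column holds the highest of 42.

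Truncated Egr3 gave the lowest of the 4 signals for 36 of the 75 members (48.0%), compared with 24.9% of all 8414 genes, and the highest for 5 (6.67%), compared with 25.2%. Wildtype was lowest for 21 members (28.0%), compared with 21.5% of all genes, and highest for 11 (14.7%), compared with 17.1%. RNA276 was the highest for 42 members (56.0%), compared with 33.1% of all genes, and RNA275 for 17 (22.7%), compared with 24.6%. With equal medians, truncated Egr3 was lowest for 44.7% of members and 23.4% of all genes, and RNA276 was highest for 69.7% of members and 42.4% of all genes. These counts describe 4 single RNAs and compare no groups.

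The other ribosomal and mitochondrial genes were set beside the members as a description. Of 77 measured respiratory chain subunit genes none was 1.5-fold apart, and their median was -0.05 as deposited. With equal medians it was 0.01 and Ndufs8, at 0.60, passed 1.5-fold. The 40 measured cytosolic ribosomal protein genes had a median of -0.12, with 28 lower in truncated Egr3, but the median was 0.03 with 16 lower after quantile normalization. Truncated Egr3 was the lowest of the 4 RNAs for 47.4% of the respiratory chain genes and 69.2% of the cytosolic ribosomal protein genes. RNA276 was the highest for 31.6% of the respiratory chain genes and 69.2% of the cytosolic ribosomal protein genes.

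Mitochondrial ribosome proteins whose symbols do not start with Mrp differed in either direction. Dap3, the GTP-binding protein of the small subunit, read 413 in truncated Egr3 and 382 in wildtype, and Gadd45gip1, a large-subunit protein, read 195 in truncated Egr3 and 146 in wildtype, a difference of 0.42. Ptcd3 and Chchd1, both of the small subunit, had differences of -0.27 and -0.18. None of these 4 was 1.5-fold apart.

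Among the genes that build, serve and regulate the mitochondrial ribosome, Ppargc1b alone was 1.5-fold apart on the deposited scale among those above the floor in both labelled RNAs. Of 15 measured assembly factors 12 were lower in truncated Egr3 and 3 higher, where 49.9% of all measured genes were lower. The median of these factors was -0.06. With equal medians, where the median of all measured genes was 0.09, 6 factors were lower and 9 higher. The largest differences among them were 0.40 in Malsu1, a factor that attaches to the large subunit, and -0.25 in Noa1, a GTPase. Malsu1 was read on type B and Noa1 on type A. Of 12 translation factors 7 were higher and 5 lower, with the elongation factor gene Tsfm at 0.42 and the initiation factor gene Mtif3 at 0.41. Both were read on type B, and differences of probe sets printed on both types averaged 0.14 lower by type A. Of 18 mitochondrial aminoacyl-tRNA synthetases and related enzymes 11 were higher and 7 lower, and Tars2, which charges threonine tRNA, read 139 in truncated Egr3 and 93.3 in wildtype, while Kars had a difference of 0.42. Tars2, at 0.58, passed 1.5-fold with quantile normalization and with equal medians, at 0.59 and 0.64. Of the synthetases with a labelled RNA under the floor, Vars2 read 124 in truncated Egr3 and 78.6 in wildtype, at least 1.10-fold higher, and Sars2 has the bound given beside Mrps12.

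For mitochondrial DNA and transcription, 5 of 9 genes were higher and 4 lower. With equal medians, where the median of all measured genes was 0.09, 8 were higher and 1 lower. On the deposited scale Polrmt, the mitochondrial RNA polymerase, was at 0.29 and Mterf1a, a transcription termination factor, at 0.27. Polrmt was read on type A and Mterf1a on type B. Of 9 measured regulators of mitochondrial biogenesis 6 were lower and 3 higher, where 49.9% of all measured genes were lower. Ppargc1b, a coactivator of mitochondrial genes, read 169 in truncated Egr3, 259 in wildtype, 259 in RNA275 and 145 in RNA276, 1.53-fold lower in truncated Egr3 than in wildtype, although the difference did not pass 1.5-fold with equal medians. Its partner receptor gene Esrra read 77.2 in truncated Egr3 and 114 in wildtype, whereas Gabpa, whose product binds the ETS letters searched for in the promoters, read 184 in truncated Egr3 and 136 in wildtype.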

How the data were processed

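Total RNA of 4 mouse myotube RNAs was read on 2 oligonucleotide array types, 8 arrays in all, and groups were taken from the labels. The deposited values are 1 intensity per probe set on a linear scale; the authors' software, normalization and genome build are not given in the sources used. The mean after trimming 2% of probe sets at each end was 150.0 on all 8 arrays, and the deposited scale was kept, which removes a difference shared by most genes. Gene names came from the platform annotation, and the 160 probe sets of members matched RefSeq by gene number with the same symbol.

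A floor was set on the 2 labelled arrays, at percentile 50 of type A (67.6) and percentile 60 of type B (112.6), before taking log2. Folds were counted at 2-fold and 1.5-fold, with no test, and the counting was tested on simulated data. The number of arrays limits the precision. Alternatives were quantile normalization, equal medians, loess (span 0.3), other floors, the median over probe sets and dropping suffixed probe sets. Suffixed probe sets are those whose names end in a form such as _a_at, _s_at or _x_at. The members and lists were chosen with earlier results of these data known, and the ribosome positions, the 4-RNA orders and the 2 comparison families after the values were seen.

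The members named were all at least 1.5-fold apart, the 12 highest and 12 lowest differences, the 3 widest and 3 narrowest ranges, those whose probe sets differed by 0.5 or more, and from each list the genes 1.5-fold apart or the 2 largest differences. Others were named after their values were seen, for their position, promoter or neighbour. Promoter windows of 300 bases are from RefSeq. The tools were pandas 2.3.3 and numpy 2.4.6 under Python 3.11.15, with loess from statsmodels 0.14.6 and figures from matplotlib 3.10.9.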

Additional observations from a re-analysis of the deposited data

Results flagged for a closer look

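Signals of unassigned RNAs stood at least 1.5-fold above both labelled RNAs for 5 of the 75 members above the floor in all 4 RNAs (6.67%), against 9.52% of 8414 genes of that kind, a threshold chosen after seeing the data. In RNA276, the Mrps11 signal of 212 was 1.72 times the higher labelled one, with 90.5 in truncated Egr3 and 123 in wildtype. Mrpl19, a large-subunit gene, read 178 in RNA276 and 173 in RNA275, which are 1.62 and 1.57 times the higher labelled signal, with 110.1 in truncated Egr3 and 96.6 in wildtype. Its type B probe set read 326 in truncated Egr3, 284 in wildtype, 373 in RNA275 and 398 in RNA276, short of 1.5-fold. A second type A probe set read 66.7 in truncated Egr3, 113 in wildtype, 123 in RNA275 and 119 in RNA276, also short of it. Mrpl18, of the central protuberance, read 263 in RNA276, 1.61 times the higher labelled signal, with 158 in truncated Egr3 and 163 in wildtype. Mrps26 read 298 in RNA275, 1.59 times the higher labelled signal, with 188 in truncated Egr3 and 136 in wildtype. Mrpl43 read 365 in RNA275, 1.53 times the higher labelled signal, with 239 in truncated Egr3 and 226 in wildtype; on type B the values were 1133 for truncated Egr3, 1076 for wildtype and 1770.1 for RNA275. These are single arrays with no stated condition, and none of the differences was tested.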

How the results depend on the processing

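The counts at 2-fold were 0 higher and 0 lower under every alternative tried, and also at 3-fold; at 1.5-fold they were 1 higher and 2 lower on the deposited scale and with the lower floor or none. They were 1 and 3 with quantile normalization and loess, 2 and 1 with equal medians, and 1 and 1 with the higher floor and without suffixed probe sets. The median of the members lay between -0.08 and 0.00, with the last value under equal medians, where 50% of members were lower in truncated Egr3 and 8 members changed sign. Members stayed below all measured genes by 0.03 to 0.09 in the median under the scalings, floors and probe set choices. The value of 0.03 came with the median over probe sets, which was taken for the members only. All measured genes kept 1 probe set each in that comparison. The cause of the shifts was not tested. Single genes moved by more than 0.17 in 11 members with the median over probe sets, in 3 without suffixed probe sets, which left 55 members, and in 1 with the higher floor. None moved that far under quantile normalization, equal medians or loess. With the median over probe sets no member was 1.5-fold apart. Leaving out a replicate was not possible, as each label has 1 RNA. No paired analysis was possible because there is 1 RNA per label. The orders over the 4 RNAs under other scalings were chosen after seeing the data, and RNA276 was highest for 69.7% of members with equal medians. Signals near the floor limit Mrpl1, Mrps9, Mrps5 and Mrps11, which lay under 100 in truncated Egr3.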

Other observations

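An order that recurred across many members, looked for after their values were seen, put truncated Egr3 lowest, wildtype next, then RNA275, and RNA276 highest. It held for 19 of the 75 members above the floor in every RNA (25.3%) and for 637 of 8414 genes (7.57%). Mrps11, Mrpl46, Mrpl27 and Mrps7 are among these members. On type B the same Mrpl27 probe set read 1915 in truncated Egr3, 1773 in wildtype, 2851 in RNA275 and 3245 in RNA276. Wildtype was lowest there, so the order did not hold on type B. RNA276 was above both labelled RNAs for 50 members (66.7%), compared with 42.0% of all genes, and RNA275 for 44 (58.7%), compared with 38.4%. Among respiratory chain subunit genes these shares were 73.7% for RNA276 and 77.6% for RNA275. Among cytosolic ribosomal protein genes they were 71.8% for RNA276 and 38.5% for RNA275. RNA275 was the highest of the 4 for 22.7% of the mitochondrial ribosomal protein genes, against 53.9% of the respiratory chain subunit genes. Neither RNA has a condition that places it in a group, and the difference between the families was not tested.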
